A study of Mus musculus with 9 samples.

Results

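Mitochondrial ribosomal protein genes are the nuclear genes that encode the proteins of the ribosome inside mitochondria. They were taken from the gene count table as the symbols that start with Mrpl or Mrps and a digit, leaving out 5 pseudogene symbols that contain -ps. This gave 77 of 46095 symbols, of which 48 carry large subunit names (Mrpl) and 29 carry small subunit names (Mrps). The cells, bone marrow-derived macrophages, are obtained by letting precursors from the marrow mature in culture, and here they came from wild-type Balb/c mice aged 6 weeks. The 9 libraries formed 3 groups of 3, which were cells given LPS plus BHB (LPS+BHB), cells given LPS (LPS) and control cells (Con). LPS commonly abbreviates lipopolysaccharide, which bacteria carry on their surface and which activates macrophages, and BHB the ketone body beta-hydroxybutyrate, but the labels write out neither name and give no dose or time. Nothing in the labels says whether the 3 libraries of a group came from separate animals or cultures, so the tests measure the spread between libraries, which may be technical.

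Mitochondrial ribosomes translate the proteins that mitochondrial DNA encodes, all of which are core subunits of the oxidative phosphorylation system. Their RNA is transcribed in the organelle, whereas all of their proteins are made in the cytosol from nuclear genes and imported. The small subunit binds and decodes the messenger RNA, and the large subunit joins the amino acids and holds the tunnel through which the new chain leaves towards the inner membrane. Part of these proteins have counterparts in bacterial ribosomes and the rest are specific to mitochondria. Activated macrophages are known to shift their energy metabolism between respiration and glycolysis.

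Library totals lay between 29633411 and 32798920 counts, and 14026 genes passed a filter on low counts. Of the macrophage markers looked for, 9 of 10 were detected and Aif1 was at 0, with summed levels of 15035 to 15562 counts per 1000000 counts of the scaled library (CPM) in LPS+BHB, 9170 to 10492 CPM in LPS and 19331 to 22668 CPM in Con libraries. The Con libraries differed in genes that LPS induces: Acod1 had 24, 1739 and 1808 counts in Con replicates 1, 2 and 3, and Il12b had 0, 223 and 213. Fold changes of Mrps18c and Mrps36 are therefore also given without Con replicates 2 and 3, and those of other members are not. In that fit the lone Con library is assumed to vary like the libraries of the other groups, so its counts of calls are left out. The dividing-cell list summed to 704 to 770 CPM in LPS+BHB, 901 to 929 CPM in LPS and 344 to 413 CPM in Con libraries, of which Mki67 made up 549, 641 and 39.8 CPM on average. Most of that list went the other way, with 8 of its 10 genes called lower in LPS against Con and 9 of 10 in LPS+BHB against Con. Stromal markers summed to 132 to 161 CPM in LPS+BHB, 98.5 to 109 CPM in LPS and 7.26 to 16.4 CPM in Con libraries, to which Pdgfrb gave 138, 98.5 and 3.54 CPM on average in LPS+BHB, LPS and Con. Dendritic cell markers summed to 16.4 to 17.5, 20 to 24.7 and 1.83 to 2.62 CPM in the same order of groups. Neutrophil precursor markers summed to 4.62 to 5.7 CPM in LPS+BHB, 1.85 to 3.3 CPM in LPS and 4.33 to 4.76 CPM in Con libraries, and erythroid and megakaryocyte markers, of which Hbb-bt was at 0, to 1.45 to 2.1, 0.396 to 0.839 and 1.04 to 1.38 CPM. In LPS+BHB against LPS, S100a8 (0.92), Ltf (1.99), Itga2b (1.61) and Pf4 (1.62) of these lists were called higher on the log2 scale. Across all libraries lymphocyte markers summed to between 0 and 0.35 CPM and mast cell and basophil markers, of which 4 of 6 were at 0, to between 0 and 0.0563 CPM. The part of these markers in the results was not tested, and in bulk RNA fewer cells of a type and less RNA per cell cannot be told apart.

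Of the 77 members, 76 passed the filter. Mrpl40, a protein of the central protuberance of the large subunit (chr16:18872018-18876862, minus strand, GRCm38), did not, with 2, 2 and 2 counts in LPS+BHB, 3, 4 and 0 in LPS and 12, 2 and 5 in Con libraries. Together the members took 0.13%, 0.122% and 0.123% of the counts of the LPS+BHB libraries, 0.145%, 0.145% and 0.148% of the LPS libraries and 0.146%, 0.151% and 0.149% of the Con libraries. With TMM scaling their summed level was 1426, 1342 and 1334 CPM in LPS+BHB libraries, 1535, 1532 and 1546 CPM in LPS libraries and 1268, 1327 and 1293 CPM in Con libraries. With that scaling the LPS libraries were above all others and each LPS+BHB library above each Con library, whereas in shares of the library total the LPS+BHB libraries were lowest and the LPS and Con libraries overlapped. Large subunit symbols had 1.95, 1.96 and 2 times the summed CPM of small subunit symbols in LPS+BHB, 1.89, 1.89 and 1.87 times in LPS and 1.9, 1.84 and 1.88 times in Con libraries, so the ratio was higher in the LPS+BHB libraries than in the other 6.

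Levels differed widely between members once set against length, here CPM per kilobase of the median protein-coding transcript, averaged over the 9 libraries. The median was 13.8 CPM per kilobase for large and 11.4 for small subunit symbols. Mrpl52, a protein specific to the mitochondrial large subunit, was highest at 71.5, followed by Mrpl20 at 50.3 and Mrpl14 at 36.2, both counterparts of bacterial proteins. In the small subunit names Mrps18a led at 35.3, with Mrps17 and Mrps21 at 30.5 each. The lowest levels after Mrpl40 (0.105) were 1.64 for Mrps35, 2.19 for Mrpl23 and 2.2 for Mrpl22 CPM per kilobase. Mrps25 followed at 2.33, and Mrps18b and Mrpl47 at 2.44 each. These levels depend on the annotated transcript length, which may not be that of the transcript made in these cells. They may also depend on how reads shared with other genes were counted, which was not tested. Of the stretches of 31 bases in Mrpl22 and Mrpl23, 29.8% and 14% also occur in another gene, against 4.2% for Mrpl40 and 0.69% for Mrps35. Of the exon bases of Mrps25 and Mrps18b, 69.8% and 30.5% lie inside exons of other genes.

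**Figure D1:**
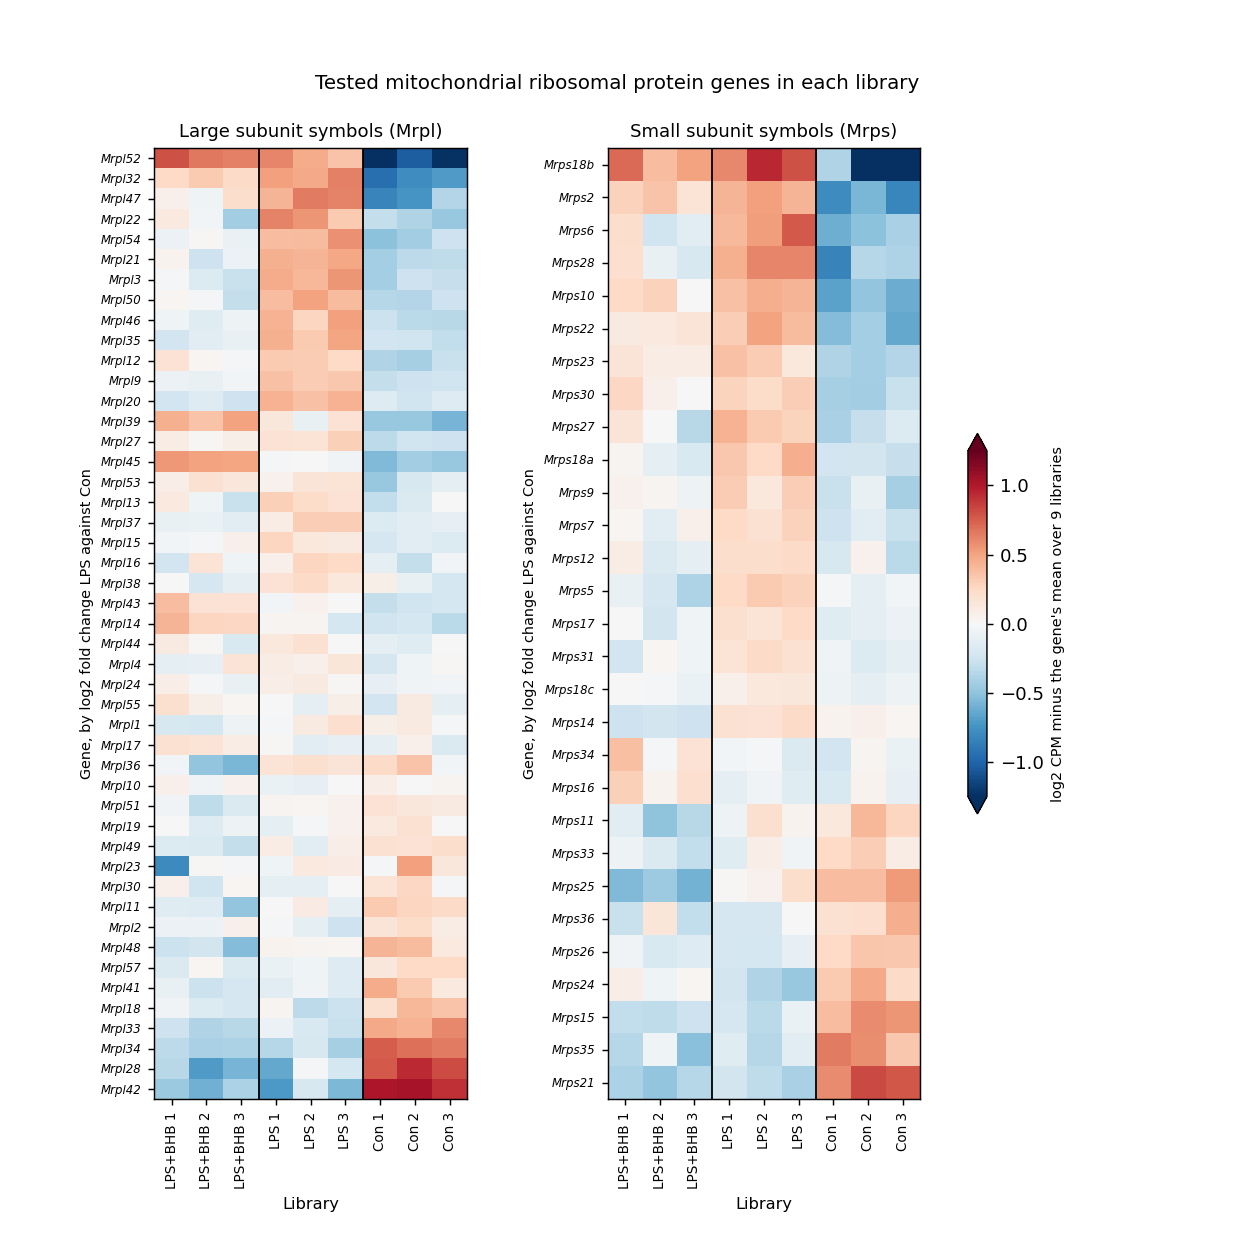
Level of the 76 tested members in each of 9 libraries, as log2 CPM minus the mean of the gene over the libraries (colour), with large subunit symbols on the left and small subunit symbols on the right, ordered by the log2 fold change of LPS against Con. The columns run from LPS+BHB through LPS to Con, and genes at the top, such as Mrpl52 and Mrps2, are low in the 3 Con libraries, while genes at the bottom, such as Mrpl42 and Mrps21, are high in them.

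The first comparison asks what LPS alone did to these genes. In LPS against Con, 44 of the 76 tested members rose and 18 fell with TMM scaling, against 28 and 30 with library totals alone, and their median log2 fold change was 0.26 with TMM. A gene was called at an adjusted p of 0.05 in edgeR's quasi-likelihood test over all 14026 genes. Over all tested genes 79.8% were called, 38.4% higher and 41.4% lower, with a median of -0.06. The levels of LPS and Con libraries did not overlap for 65 of the 76 members, against 82.7% of all genes. Changes of at least 2-fold were found for 12 of the 76 members and for 46% of all genes, and the middle 50% of the members' log2 fold changes spanned 0.86, against 1.83 over all genes. The members were thus less spread than the table as a whole while their median lay above that of all genes.

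The split into higher and lower depends on how the libraries are scaled. TMM factors assume that most genes do not change, and library totals alone make no such correction. With totals the median of all genes moved by -0.27, to -0.34, and 30.5% of all genes were called higher and 50.5% lower. The median of the members was then -0.01. Under either scaling the median of the members lay above that of all genes. The calls of Mrps18c and Mrps36 were not stable over the alternative fits. Without Con replicates 2 and 3 their log2 fold changes were 0.17 and -0.32. With all libraries they were 0.18 and -0.42.

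Counts in the subunits were close. Of the 47 tested large subunit symbols 26 rose and 11 fell, with a median log2 fold change of 0.23, and of the 29 small subunit symbols 18 rose and 7 fell, with a median of 0.32. Library totals alone gave 16 rises and 19 falls in the large and 12 and 11 in the small subunit. The difference between the medians, large minus small, was -0.09 and ranged from -0.13 to -0.05 when single libraries were left out. It was not tested. The rises of large subunit symbols ran from 0.19 to 1.65 and the falls from -0.22 to -1.46, and those of small subunit symbols from 0.16 to 1.91 and from -0.35 to -1.05.

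**Figure D2:**
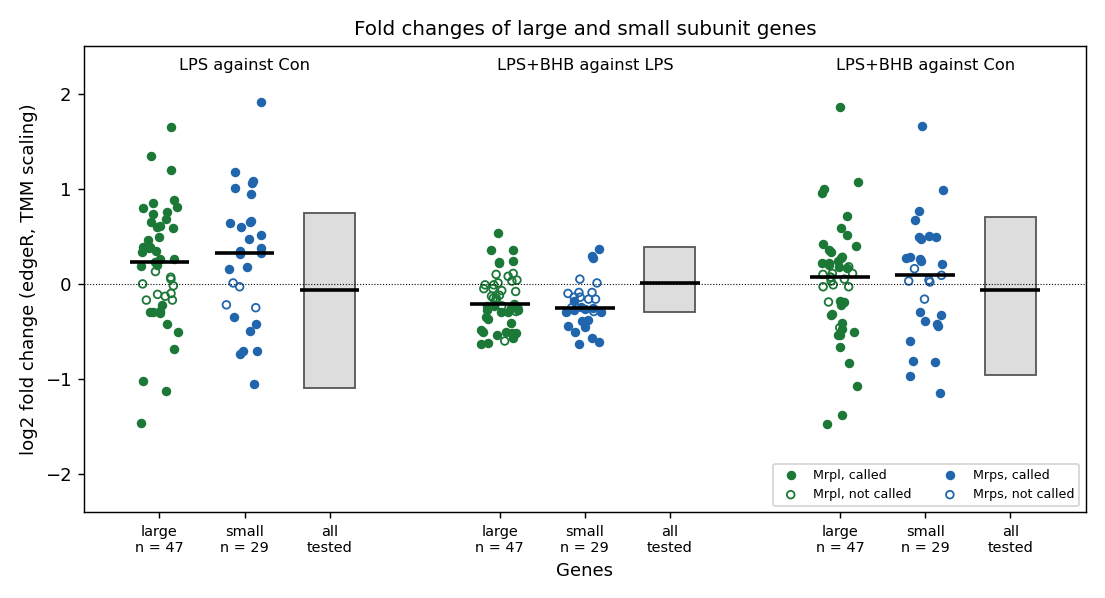
Log2 fold changes of the 47 large and 29 small subunit symbols in the 3 comparisons, with filled points for members called at an adjusted p of 0.05, open points for the others and a black bar at the median. Grey boxes span the middle 50% of all tested genes, and the members lie above the median of all genes in LPS against Con (0.23 and 0.32, against -0.06) and below it in LPS+BHB against LPS (-0.21 and -0.25, against 0.01).

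Among large subunit genes Mrpl52 rose most. It had 41.7, 37.6 and 35 CPM in LPS libraries and 11.4, 13.4 and 11.6 CPM in Con libraries. The groups were far apart, with a log2 fold change of 1.65 ± 0.08 (SE), a 3.14-fold rise (edgeR adjusted p = 1.59e-13). Mrpl32, a counterpart of bacterial L32 whose yeast form is cut by an inner membrane protease before it joins the ribosome, had 21, 20.4 and 22.7 CPM in LPS libraries and 7.66, 8.59 and 9.02 CPM in Con libraries. This was a rise of 1.34 ± 0.09 on the log2 scale (edgeR adjusted p = 1.88e-11). Mrpl47, which sits at the rim of the exit tunnel, rose by 1.20 ± 0.14, and Mrpl54, specific to mitochondria, by 0.85 ± 0.09. Of the exon bases of Mrpl47, 24.2% lie inside exons of genes on the opposite strand, of which Ndufb5 overlaps most. Without a stated strand setting the reads of such genes cannot be told apart.

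In the small subunit the largest rise at a level of at least 5 CPM was that of Mrps2, a counterpart of bacterial S2. Its level was 46.9, 50 and 46.9 CPM in LPS libraries and 20.2, 23.5 and 19.9 CPM in Con libraries, a log2 fold change of 1.18 ± 0.07 (edgeR adjusted p = 4.03e-12). No LPS library came near a Con library. Mrps6 (1.08 ± 0.15), Mrps28 (1.06 ± 0.13) and Mrps10 (1.01 ± 0.10), counterparts of bacterial S6, S1 and S10 as the current naming of ribosomal proteins has it, also rose about 2-fold. The mitochondria-specific Mrps22 and Mrps23 rose by 0.94 ± 0.10 and 0.66 ± 0.07.

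The falls were as large as most rises. Mrpl42, a mitochondria-specific protein of the large subunit, had 4.65, 6.68 and 5.2 CPM in LPS libraries, against 15.4, 15.6 and 14.4 CPM in Con libraries. Its log2 fold change was -1.46 ± 0.13 (edgeR adjusted p = 1.42e-09), and every LPS library was below every Con library by more than the spread within either group. Mrps21, a counterpart of bacterial S21, had 10.8, 10.2 and 9.55 CPM in LPS libraries and 19.1, 22.5 and 21.7 CPM in Con libraries, a log2 fold change of -1.05 ± 0.10 (edgeR adjusted p = 2.56e-09). Mrpl28, a counterpart of bacterial L28 with 9.37, 14.4 and 12.6 CPM in LPS libraries and 24.9, 28 and 25.8 CPM in Con libraries, fell by 1.12 ± 0.12 on the log2 scale. Mrpl34 (-1.02 ± 0.10) and Mrpl33 (-0.68 ± 0.10), small counterparts of bacterial L34 and L33, fell as well. In the small subunit Mrps35 (-0.74 ± 0.14), Mrps15 (-0.71 ± 0.08) and Mrps24 (-0.70 ± 0.09) followed, of which Mrps24 is the counterpart of bacterial S3 at the entry of the messenger RNA channel. Thus genes for proteins of one particle moved in opposite directions by more than their errors.

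The promoters of the gene that rose most and the gene that fell most in each subunit, at 5 CPM or more, are shown because these 4 genes mark the ends of the range, and that of Mrps12 because a second gene starts within it. Each is the RefSeq window on GRCm38.p6 from 250 bases before the annotated start to 50 after it, read 5′ to 3′ on the strand of the gene. The windows are chr14:54426659-54426958 (plus strand) for Mrpl52, chr2:28467816-28468115 (plus) for Mrps2, chr10:95501900-95502199 (minus) for Mrpl42, chr3:95871465-95871764 (minus) for Mrps21 and chr7:28741772-28742071 (minus) for Mrps12. Capitals mark every match, on either strand, to 5 short motifs of factors known for genes of this kind or for promoters in general, which were NRF1 core GCGCATG, ETS/GABP CCGGAAG, YY1 core AGATGGC, SP1 GGGCGG and E-box CACGTG.
Mrpl52: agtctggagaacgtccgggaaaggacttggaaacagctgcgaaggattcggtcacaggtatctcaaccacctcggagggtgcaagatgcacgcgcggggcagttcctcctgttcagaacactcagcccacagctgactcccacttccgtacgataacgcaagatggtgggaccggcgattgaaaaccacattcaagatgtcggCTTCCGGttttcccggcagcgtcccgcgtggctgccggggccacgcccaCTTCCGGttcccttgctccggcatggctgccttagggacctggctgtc
Mrps2: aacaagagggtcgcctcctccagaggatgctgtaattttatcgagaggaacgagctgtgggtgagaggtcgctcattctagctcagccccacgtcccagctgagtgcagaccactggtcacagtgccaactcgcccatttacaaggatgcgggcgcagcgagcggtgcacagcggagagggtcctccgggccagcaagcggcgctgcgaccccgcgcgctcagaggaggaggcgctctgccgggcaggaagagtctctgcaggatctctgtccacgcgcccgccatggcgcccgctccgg
Mrpl42: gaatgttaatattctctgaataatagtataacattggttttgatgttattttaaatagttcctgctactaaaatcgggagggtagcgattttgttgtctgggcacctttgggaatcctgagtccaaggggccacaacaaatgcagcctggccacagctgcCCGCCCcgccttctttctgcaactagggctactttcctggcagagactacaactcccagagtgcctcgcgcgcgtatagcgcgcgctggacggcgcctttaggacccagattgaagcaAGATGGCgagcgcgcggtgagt
Mrps21: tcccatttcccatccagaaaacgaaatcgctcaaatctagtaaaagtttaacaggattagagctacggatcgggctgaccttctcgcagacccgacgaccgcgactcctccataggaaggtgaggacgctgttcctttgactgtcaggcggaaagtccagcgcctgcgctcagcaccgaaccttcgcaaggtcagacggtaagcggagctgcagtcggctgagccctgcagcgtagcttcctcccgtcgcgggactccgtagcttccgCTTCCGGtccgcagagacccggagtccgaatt
Mrps12: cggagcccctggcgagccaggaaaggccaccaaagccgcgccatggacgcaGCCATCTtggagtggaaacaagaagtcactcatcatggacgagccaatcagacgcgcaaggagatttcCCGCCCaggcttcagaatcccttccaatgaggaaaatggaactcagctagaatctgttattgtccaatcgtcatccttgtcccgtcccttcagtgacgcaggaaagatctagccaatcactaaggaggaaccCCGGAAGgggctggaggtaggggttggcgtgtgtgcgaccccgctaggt

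Mrpl52 held 2 ETS/GABP matches, Mrps21 held 1 and Mrps12 held 1 beside a YY1 core and an SP1 match. Mrpl42 had an SP1 match and a YY1 core close to its start, and Mrps2 had none of the 5 motifs. Windows were found for 68 of the 77 members, and 9 had none (Mrpl4, Mrpl13, Mrpl15, Mrpl19, Mrpl38, Mrpl54, Mrps28, Mrps34 and Mrps35). Where a symbol had more than 1 window only the first was kept, which dropped 5826 windows over all symbols. Other annotated starts of a gene were therefore not searched. The ETS/GABP letters were in 35.3% of the member windows, against 18.3% of those of the 9752 tested genes with a window and 9.12% of all 27025 windows. The YY1 core was in 17.6% of member windows, against 7.64% and 6.45%, and the NRF1 core in 11.8%, against 7.17% and 4.04%. SP1 letters were in 50% of member windows, 63.1% of those of tested genes and 35.9% of all, and the E-box in 7.35%, 10.3% and 7.24%. Among members with a window, ETS/GABP letters were in 14 of 38 that rose, 6 of 17 that fell and 4 of 12 not called in LPS against Con. In LPS+BHB against LPS they were in 4 of 8 that rose, 6 of 31 that fell and 14 of 28 not called. The YY1 core was in 7 of 38 that rose and 2 of 17 that fell in LPS against Con. In LPS+BHB against LPS it was in 1 of 8 that rose, 9 of 31 that fell and 2 of 28 not called. These are counts of letters and not of bound sites, and no difference between them was tested.

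Addition of BHB to LPS is addressed by the second comparison. Of the 76 members, 9 rose, 35 fell and 32 were not called in LPS+BHB against LPS, with a median log2 fold change of -0.23. Over all tested genes 50.7% were called, 26.4% higher and 24.4% lower, with a median of 0.01. The count of 9 was 5 without LPS replicate 3 and 5 without LPS+BHB replicate 1, whereas the count of falls stayed between 27 and 34 with any single library left out. Levels did not overlap between the groups for 49 of the 76 members, against 56.7% of all genes. The changes were small. The falls ran from -0.18 to -0.63 and the rises from 0.22 to 0.54, no member reached 2-fold, and 14% of all genes did. With library totals alone 5 members were called higher and 41 lower, with a median of -0.28, while 23.5% and 28.4% of all genes were called higher and lower.

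Large and small subunit genes again lay close together. Of the large subunit symbols 6 rose and 20 fell (median -0.21), and of the small subunit symbols 3 rose and 15 fell (median -0.25). Library totals alone gave 4 and 23 in the large and 1 and 18 in the small subunit. The difference of the medians was 0.04, with a range of 0.02 to 0.07 when single libraries were left out, and was not tested.

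Mrpl20 and Mrps25 fell most. Mrpl20, a counterpart of bacterial L20, had 20.6, 21.8 and 20.4 CPM in LPS+BHB libraries, 32.9, 31.4 and 32.8 CPM in LPS libraries and 21.7, 20.5 and 21.7 CPM in Con libraries. The LPS libraries stood above the other 6, and the log2 fold change of LPS+BHB against LPS was -0.63 ± 0.07 (edgeR adjusted p = 1.78e-07). Mrps25, specific to mitochondria, had 9.29, 9.93 and 9 CPM in LPS+BHB libraries, 13.7, 14.1 and 15.8 CPM in LPS libraries and 17.8, 17.8 and 19.7 CPM in Con libraries. Its levels were thus lower in LPS than in Con (-0.35 ± 0.09) and lower again in LPS+BHB than in LPS (-0.63 ± 0.10, edgeR adjusted p = 1.63e-05). Of the exon bases of Mrps25, 69.8% lie inside exons of genes on the opposite strand, of which Nr2c2 overlaps most.

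Mrpl3, a counterpart of bacterial L3 near the catalytic centre, had 36.3, 32.6 and 30.2 CPM in LPS+BHB libraries and 50.3, 48.8 and 53.5 CPM in LPS libraries, a log2 fold change of -0.62 ± 0.07 (edgeR adjusted p = 3.59e-07). Mrpl35 (-0.57 ± 0.09) and Mrpl21 (-0.54 ± 0.09) fell by similar amounts. In the small subunit Mrps6 (-0.61 ± 0.14), Mrps28 (-0.57 ± 0.13) and Mrps5 (-0.51 ± 0.09), the last a counterpart of bacterial S5 at the messenger RNA entry, fell. Mrpl20, Mrpl3, Mrpl35, Mrpl21, Mrps6, Mrps28 and Mrps5 had log2 fold changes of 0.60, 0.80, 0.68, 0.81, 1.08, 1.06 and 0.35 in LPS against Con, a comparison that shares the LPS libraries with this one.

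Mrpl45 rose most with BHB. This protein sits at the exit tunnel and ties the large subunit to the inner membrane. It had 33.5, 32.6 and 32.4 CPM in LPS+BHB libraries, 22.6, 22.9 and 22.3 CPM in LPS libraries and 15.7, 17 and 16.6 CPM in Con libraries. The 3 groups formed 3 separate steps, and LPS+BHB exceeded LPS by 0.54 ± 0.07 on the log2 scale (edgeR adjusted p = 1.34e-06) and LPS exceeded Con by 0.46 ± 0.07 (edgeR adjusted p = 5.03e-06). Mrpl39 had 31.1, 29.2 and 32.4 CPM in LPS+BHB, 25.1, 21.4 and 25.8 CPM in LPS and 16.4, 16.4 and 15.2 CPM in Con libraries, which was also an order without overlap, with log2 fold changes of 0.36 ± 0.08 and 0.59 ± 0.08. Mrpl14 rose by 0.36 ± 0.08 and Mrpl43 by 0.24 ± 0.07 in LPS+BHB against LPS. However, 33.4% of the exon bases of Mrpl43 lie inside exons of genes on the opposite strand, of which Twnk overlaps most. The helicase gene Twnk itself, listed as Peo1, had a log2 fold change of 0.07 ± 0.10 and was not called.

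Mrps24 moved against its change in LPS. It had 19, 17.3 and 18.3 CPM in LPS+BHB libraries, 15.3, 13.9 and 13 CPM in LPS libraries and 22.5, 24.9 and 21.2 CPM in Con libraries. LPS+BHB libraries lay between the other groups, with a log2 fold change of 0.37 ± 0.09 over LPS (edgeR adjusted p = 0.00191) and of -0.33 ± 0.09 against Con (edgeR adjusted p = 0.00161). The calls of Mrps16 (0.29 ± 0.11) and Mrps34 (0.27 ± 0.10) were close to the threshold, with edgeR adjusted p of 0.0313 and 0.0339. Both were lost without LPS replicate 1 (adjusted p 0.0764 and 0.0508), LPS replicate 3 (0.087 and 0.136), LPS+BHB replicate 1 (0.122 and 0.214) or LPS+BHB replicate 3 (0.0628 and 0.0525). Of the exon bases of Mrps34, 77.8% lie inside exons of other genes.

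**Figure D3:**
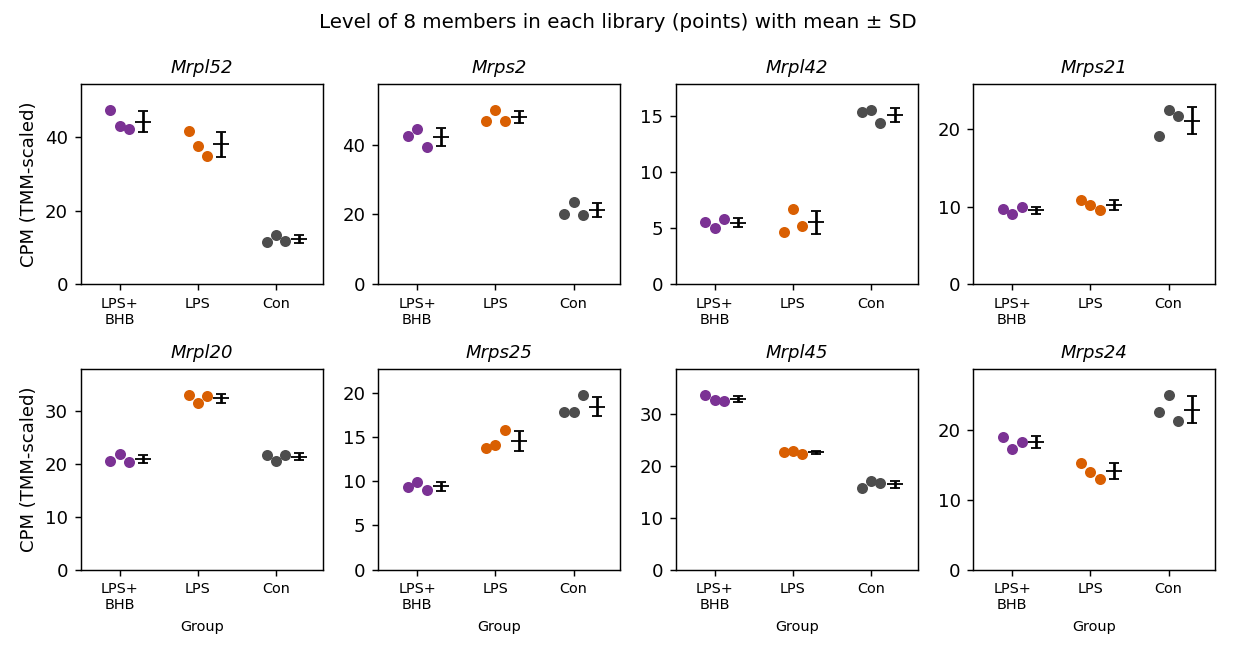
CPM of 8 members in each library (points) with the mean and SD of 3 libraries per group (bars beside the points), for LPS+BHB, LPS and Con from left to right. The upper row holds the largest called rise and fall of each subunit at 5 CPM or more in LPS against Con (Mrpl52, Mrps2, Mrpl42, Mrps21) and the lower row those in LPS+BHB against LPS (Mrpl20, Mrps25, Mrpl45, Mrps24), where Mrpl20 is high in LPS libraries (32.9, 31.4 and 32.8 CPM) and Mrpl45 is highest in LPS+BHB libraries (33.5, 32.6 and 32.4 CPM).

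Set directly against Con, LPS+BHB libraries had 31 members higher, 25 lower and 20 not called, with a median log2 fold change of 0.08. Over all tested genes 78.4% were called, 38% higher and 40.4% lower, with a median of -0.06. Levels did not overlap for 52 of the 76 members, against 80.2% of all genes. Of 47 large subunit symbols 18 were called higher and 15 lower, and of 29 small subunit symbols 13 and 10, against 7 and 26 and 5 and 14 with library totals alone. The split again depends on the scaling, since library totals alone moved the median of all genes by -0.33, to -0.38. With totals 12 members were called higher and 40 lower, with a median of -0.25. Over all tested genes 28% were then called higher and 52.5% lower. Without Con replicates 2 and 3 the log2 fold change of Mrps36 was -0.32, against -0.42 with all libraries. When single libraries were left out, the count of rises ranged from 22 to 31.

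This comparison shares the Con libraries with LPS against Con. Mrpl52 was at 47.5, 43 and 42.2 CPM in LPS+BHB libraries and at 11.4, 13.4 and 11.6 CPM in Con libraries, a 3.64-fold rise (log2 1.86 ± 0.08, edgeR adjusted p = 1.93e-14). The 4 largest rises per subunit at 5 CPM or more also held Mrpl32 (1.07 ± 0.09), Mrpl45 (1.00 ± 0.07), Mrps2 (0.99 ± 0.07), Mrpl39 (0.95 ± 0.08), Mrps10 (0.77 ± 0.10), Mrps22 (0.67 ± 0.10) and Mrps23 (0.50 ± 0.07). By the same rule for falls, Mrpl42 was lowest at -1.47 ± 0.13, with 5.56, 5.04 and 5.82 CPM in LPS+BHB libraries and 15.4, 15.6 and 14.4 CPM in Con libraries (edgeR adjusted p = 1.44e-09). Mrpl28 (-1.38 ± 0.13), Mrps21 (-1.15 ± 0.10), Mrpl34 (-1.07 ± 0.10), Mrps25 (-0.97 ± 0.10), Mrpl33 (-0.83 ± 0.11), Mrps35 (-0.82 ± 0.14) and Mrps15 (-0.81 ± 0.08) also fell.

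Genes for proteins with bacterial counterparts and for those specific to mitochondria were counted separately by their RNA, and no difference between them was tested. In LPS against Con 15 of 30 large subunit genes with a bacterial counterpart rose and 7 fell. Of 19 mitochondria-specific ones 13 rose and 4 fell. In the small subunit 11 of 16 with a counterpart rose and 3 fell, and 5 of 10 mitochondria-specific ones rose and 3 fell. Library totals alone gave rises and falls of 10 and 13, 8 and 6, 6 and 5, and 4 and 5 in the same order. For LPS+BHB against LPS the counts of rises and falls were 2 and 12 of 30, 4 and 9 of 19, 2 and 10 of 16, and 1 and 4 of 10. Here Mrps18a and Mrps30 were counted with the large subunit, where structures place them despite their names. Of the paralogs that descend from bacterial S18, Mrps18c was counted as a counterpart and Mrps18a and Mrps18b as mitochondria-specific.

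Structural sites hold few members each, to be read against the 38.4% higher and 41.4% lower of all genes in LPS against Con and the 26.4% and 24.4% in LPS+BHB against LPS. The stalk of the large subunit, which recruits elongation factors, holds Mrpl10, Mrpl11 and Mrpl12. Mrpl12 had 39, 34.9 and 33.9 CPM in LPS+BHB libraries, 43, 42.9 and 40.8 CPM in LPS libraries and 26.4, 25.7 and 28.4 CPM in Con libraries. Mrpl12 rose by 0.65 ± 0.07 in LPS against Con (edgeR adjusted p = 1.95e-08) and had a log2 fold change of -0.23 ± 0.07 in LPS+BHB against LPS (edgeR adjusted p = 0.00714), while its partner Mrpl10, the stalk base, had -0.10 ± 0.07 and 0.08 ± 0.07 and was called in neither. Mrpl11 fell in both comparisons (-0.28 ± 0.10 and -0.25 ± 0.10). At the rim of the exit tunnel 3 of 6 genes rose in LPS against Con (Mrpl22, Mrpl45 and Mrpl47) and none fell. Mrpl17, Mrpl23 and Mrpl24 were not called there. In LPS+BHB against LPS 2 of these genes rose (Mrpl17 and Mrpl45) and 1 fell (Mrpl47). In the central protuberance, which contacts the small subunit, 3 of 6 tested genes rose and 2 fell in LPS against Con. None of them rose and 3 fell (Mrpl38, Mrpl46 and Mrpl48) in LPS+BHB against LPS. Mrps12, a counterpart of bacterial S12 at the decoding centre, was at 9.99, 9.97 and 10.1 CPM in LPS libraries and at 7.46, 8.89 and 6.79 CPM in Con libraries, a rise of 0.38 ± 0.12 (edgeR adjusted p = 0.0088) that was lost without Con replicate 3 (0.29, adjusted p = 0.0536) and with library totals alone (0.10, adjusted p = 0.443).

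The Mrps18 paralogs, which descend from bacterial S18, differed in the size of their changes. Mrps18a, now placed in the large subunit, had 26.7, 24.1 and 22.8 CPM in LPS+BHB, 32.9, 31 and 35.8 CPM in LPS and 22.1, 22.2 and 21.3 CPM in Con libraries. It rose by 0.60 ± 0.08 in LPS against Con and fell by 0.44 ± 0.08 in LPS+BHB against LPS. Mrps18c, which holds the place of the bacterial protein, varied little, with means of 15.5 ± 0.431 CPM in LPS+BHB, 17.1 ± 0.519 CPM in LPS and 15 ± 0.254 CPM in Con libraries (SD, n = 3 each). Its call in LPS against Con (0.18 ± 0.08, edgeR adjusted p = 0.045) was lost without any single Con library (adjusted p from 0.0723 to 0.11), without LPS replicate 2 (0.0976) or 3 (0.0834), and turned to -0.09 with library totals alone. Mrps18b had the largest fold change of all members but few counts, with 91, 71 and 76 counts in LPS+BHB, 87, 104 and 93 in LPS and 52, 15 and 27 in Con libraries. The log2 fold change of LPS against Con was 1.91 ± 0.32 (edgeR adjusted p = 1.74e-05) and that of LPS+BHB against LPS -0.25 ± 0.29, which was not called. The gene lies at chr17:35910379-35916389, and 30.5% of its exon bases are inside exons of genes on the opposite strand, of which Gm16279 overlaps most.

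Mrps30, which structures likewise place in the large subunit, had 27.8, 24.3 and 23.3 CPM in LPS+BHB, 28.2, 27.2 and 28.7 CPM in LPS and 17.4, 17.2 and 19.2 CPM in Con libraries. Both treated groups were above Con, by 0.49 ± 0.08 and 0.65 ± 0.08 on the log2 scale for LPS+BHB and LPS, though the call of LPS+BHB was lost with library totals alone (0.16, edgeR adjusted p = 0.07). Mrps36 is now assigned to the 2-oxoglutarate dehydrogenase complex of the citric acid cycle and is not counted as a ribosomal protein. It had 5.05, 6.81 and 4.94 CPM in LPS+BHB, 5.31, 5.28 and 6.15 CPM in LPS and 6.98, 7.09 and 8.39 CPM in Con libraries. The fall in LPS against Con (-0.42 ± 0.15, edgeR adjusted p = 0.0147) was lost without Con replicate 3 (adjusted p = 0.0805). Mrpl58, the ribosome-bound peptidyl-tRNA hydrolase, is listed under its older symbol Ict1, which the rule does not match. It had 9.56, 8.23 and 8.79 CPM in LPS+BHB, 13.5, 12.7 and 13.2 CPM in LPS and 10.5, 11 and 11.3 CPM in Con libraries, with log2 fold changes of 0.26 ± 0.10 in LPS against Con and -0.57 ± 0.10 in LPS+BHB against LPS. With Mrps18a and Mrps30 counted in the large subunit and Mrps36 left out, the medians of the subunits differed by -0.06 in LPS against Con and by 0.04 in LPS+BHB against LPS.

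Many members share a promoter region with another gene. In 32 pairs a member started on the opposite strand within 1000 bp of the start of a second gene, and in 28 pairs both genes were tested. Where both were called, the directions were the same in 10 of 17 pairs (58.8%) in LPS against Con, against 59.6% of the other head-to-head pairs in the annotation, and in 6 of 10 (60%) in LPS+BHB against LPS, against 72.3%. Mrps12 and Sars2, the mitochondrial seryl-tRNA synthetase, start 172 bp apart and had log2 fold changes of 0.38 ± 0.12 each in LPS against Con. Mrpl32 and the proteasome gene Psma2 start 75 bp apart and rose by 1.34 ± 0.09 and 1.03 ± 0.05. Mrpl18, whose transcribed region overlaps that of the chaperonin gene Tcp1, fell by 0.50 ± 0.10 while Tcp1 rose by 1.16 ± 0.05. Mrpl46 and Mrps11, both members, overlap by 412 bp at their starts on chromosome 7, and Mrpl46 had 0.73 ± 0.09 in LPS against Con, whereas Mrps11 had -0.22 ± 0.12 and was not called. Both fell in LPS+BHB against LPS, by 0.50 ± 0.09 and 0.38 ± 0.13.

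Exons shared with other genes and sequence shared with pseudogenes or other copies could blur single members. Of the 77 members 32 had exon bases inside an exon of another annotated gene. At least 20% of the exon bases lay there, or at least 20% of the 31-base words occurred in another gene, for 14 members. Mrpl53 was highest, with 88% of its exon bases inside exons of other genes, of which Gm42688 overlaps most. Among the 62 tested members under both limits, 36 rose and 15 fell in LPS against Con and 7 rose and 32 fell in LPS+BHB against LPS, a choice of members made after seeing the data.

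The other genes of mitochondrial gene expression were taken from lists of known function. The background percentages above apply to them, both with TMM scaling and with library totals alone. Of 10 nuclear regulators known to control mitochondrial genes, 9 were tested and all 9 rose in LPS against Con (8 with library totals alone), while Ppargc1a failed the filter with 8 counts over all libraries. Pprc1, a coactivator of the PGC-1 family, had 100, 101 and 83.8 CPM in LPS+BHB, 121, 133 and 127 CPM in LPS and 30.4, 32.1 and 35.3 CPM in Con libraries, with log2 fold changes of 1.96 in LPS against Con (edgeR adjusted p = 1.04e-14) and -0.42 in LPS+BHB against LPS (edgeR adjusted p = 4.32e-05). Gabpb1 and Gabpa, the subunits of the GABP factor that binds the ETS-type letters above, rose by 1.87 and 0.88 in LPS against Con. With BHB added, 4 of the 9 regulators rose over LPS, among them Esrra (0.23), and 4 fell (3 and 5 with library totals alone), with Myc at -1.19 (edgeR adjusted p = 4.19e-08). Of the same 9, 7 rose and none fell in LPS+BHB against Con, while library totals alone gave 6 and 2. Myc had 13.3, 13.4 and 16 CPM in LPS+BHB, 32.3, 32.7 and 32.4 CPM in LPS and 11.6, 13.2 and 16.9 CPM in Con libraries, so LPS libraries alone were high.

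Of 22 assembly factors and enzymes that modify mitochondrial ribosomal RNA, 11 rose and 5 fell in LPS against Con (7 and 7 with library totals alone), while 2 rose and 11 fell in LPS+BHB against LPS. Rbfa, which helps mature the small subunit, had 9.33, 8.89 and 9.46 CPM in LPS+BHB, 6.43, 8.08 and 8.27 CPM in LPS and 41.5, 45.3 and 39.9 CPM in Con libraries. Its log2 fold change in LPS against Con was -2.48 (edgeR adjusted p = 9.54e-16), in contrast to Mterf3 (1.46) and Trub2 (1.10), which also act on the ribosome or its RNA. Fastkd2, an RNA-binding protein needed for the large subunit, had the smallest p in LPS+BHB against LPS, with 22.1, 21.4 and 17.1 CPM in LPS+BHB and 36.9, 35.9 and 36.3 CPM in LPS libraries (-0.85, edgeR adjusted p = 2.42e-07), ahead of Rpusd4 (-0.41) and Gtpbp10 (-0.55). Against Con, LPS+BHB libraries had 8 genes of the assembly list higher and 6 lower (4 and 11 with library totals alone), led by Rbfa (-2.19), Mterf3 (1.22) and Noa1 (1.09).

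Of 13 translation factors 4 rose and 6 fell in LPS against Con, with Guf1 at -1.04, and the elongation factors Gfm1 at 0.71 and Tufm at 0.70. None rose and 2 fell in LPS+BHB against LPS, the recycling factor Mrrf (-0.74) and Gfm1 (-0.40). LPS+BHB against Con gave 3 rises and 8 falls (2 and 10 with library totals alone), with Tsfm at 1.01. Of 13 genes of mitochondrial DNA maintenance and transcription 6 rose and 4 fell in LPS against Con (3 and 6 with library totals alone). Tfam, which packages mitochondrial DNA and starts its transcription, had 35.3, 32.6 and 32.7 CPM in LPS+BHB, 51.8, 51.8 and 56.5 CPM in LPS and 19.4, 20.8 and 20.4 CPM in Con libraries. It rose by 1.40 in LPS against Con (edgeR adjusted p = 3.44e-14) and fell by 0.67 in LPS+BHB against LPS (edgeR adjusted p = 2.27e-08). Polg, the catalytic subunit of the mitochondrial DNA polymerase, went the other way at -0.58 and 0.79 in these comparisons, and Lrpprc, which stabilises mitochondrial messenger RNA, fell by 0.71 in LPS+BHB against LPS. That list counted 1 rise and 5 falls in LPS+BHB against LPS and 3 and 5 in LPS+BHB against Con (1 and 8 with library totals alone), where Polg2 was at -2.07.

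Of 17 mitochondrial tRNA synthetases 4 rose and 10 fell in LPS against Con. None rose and 6 fell in LPS+BHB against LPS, while 2 rose and 12 fell in LPS+BHB against Con. Wars2 (1.20) and Vars2 (-3.59) had the smallest p in LPS against Con, and Wars2 (-0.56), Mars2 (-1.05) and Yars2 (-0.42) in LPS+BHB against LPS. The products of the ribosome's work, the mitochondrially encoded proteins, had 11 tested genes, of which none rose and 8 fell in LPS against Con (11 with library totals alone), with ND2 at -0.34 and ND6 at -0.42. COX2, COX3, ATP6 and ND4L had few counts, 1749, 961, 958 and 125 over all libraries, against 1398790 for COX1. COX2 and ATP6 are among the 8 falls and were highest in Con replicate 1. In Con replicates 1, 2 and 3 COX2 had 387, 233 and 231 counts and ATP6 had 251, 126 and 117. COX1 (0.23) rose and CYTB (-0.41) and ND4 (-0.22) fell in LPS+BHB against LPS, and 1 rose and 7 fell in LPS+BHB against Con (0 and 11 with library totals alone). The 5 genes for mitochondrial ribosomal proteins with other symbols were Dap3, Ptcd3, Aurkaip1, Chchd1 and Gadd45gip1. They had 1 rise (Ptcd3 at 0.43) and 1 fall (Dap3 at -0.46) in LPS against Con (0 and 2 with library totals alone). The reverse pair was called in LPS+BHB against LPS (Dap3 at 0.33 and Ptcd3 at -0.46), and none in LPS+BHB against Con.

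**Figure D4:**
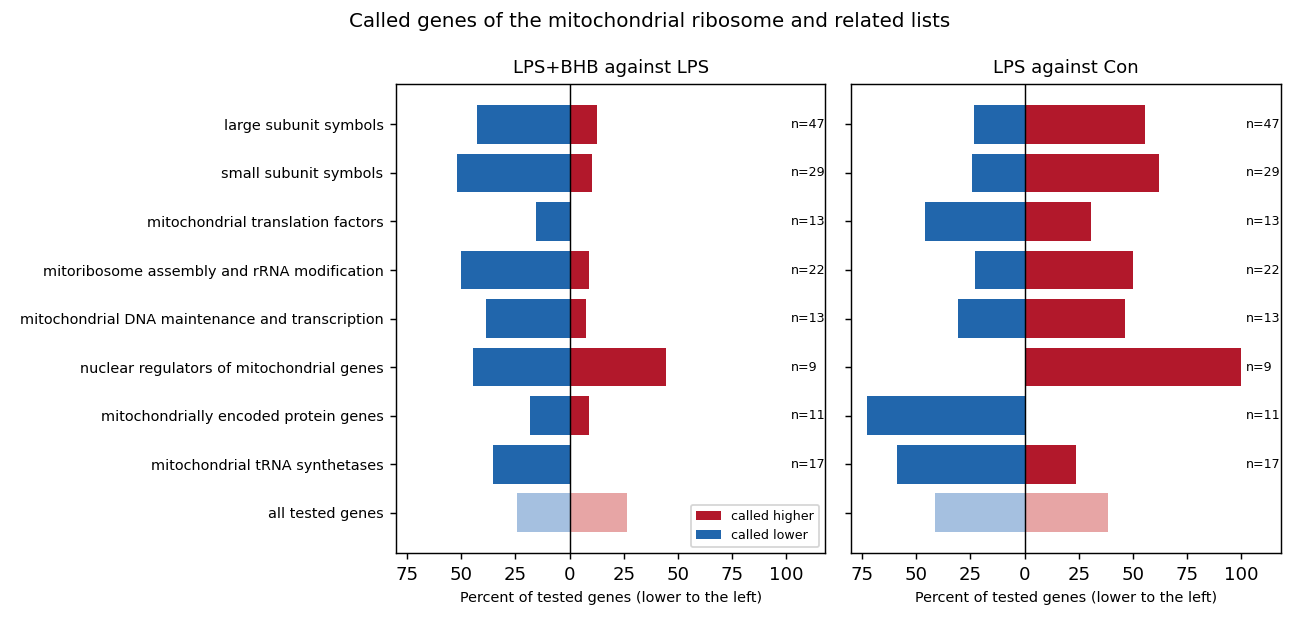
Percent of tested genes called higher (red, to the right) and lower (blue, to the left) at an adjusted p of 0.05 in LPS+BHB against LPS (left panel) and LPS against Con (right panel), for both subunits and 6 related lists, with all tested genes in pale colours at the bottom and the number of tested genes at the right of each row. Subunit genes lean to the right in LPS against Con (55.3% and 62.1% higher) and to the left in LPS+BHB against LPS (42.6% and 51.7% lower), while all 9 tested nuclear regulators rose in LPS against Con, all with TMM scaling.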

How the data were processed

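Gene expression was measured by RNA sequencing in 9 libraries. RNA was taken up in Trizol and sequenced as Illumina libraries, per the labels' protocols, and per the submitters' processing notes reads were aligned with HISAT2 to mm10. No source used here gives the counting tool, the annotation or whether strand was used. The authors deposited raw counts per gene symbol, whole numbers whose totals differ between libraries. Low genes were taken out by filterByExpr (minimum count 10, 14026 genes kept with 99.956% of counts). After TMM scaling a robust quasi-likelihood model was fitted in edgeR 4.0.16 (R 4.3.3) to all 9 libraries, with group alone in the design, 6 residual degrees of freedom and a biological coefficient of variation of 6.72%. Tests were two-sided and adjusted by Benjamini-Hochberg over all tested genes. CPM are counts per 1000000 counts of the TMM-scaled library total and carry the SD of 3 libraries. The SE of a log2 fold change is its absolute value divided by the square root of the F statistic, which is approximate. The test was checked on simulated counts in which few genes changed, so that check does not cover the dependence on scaling described above. Replicates differed by more than sampling noise (chi-square per degree of freedom 3.17 to 11.2) and were counted separately.

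The members, lists and named genes were chosen with earlier results of these data known. Named members are, for each comparison and subunit, the 4 largest called rises and falls at a mean of at least 5 CPM, a set fixed for their known roles, the 3 highest and 3 lowest per kilobase and any that failed the filter. For each list they are taken from the 3 smallest p, and 1 such gene is not reported here. Any other gene was named after its values were seen. The list of mitochondrial ribosomal RNA was not used here. Positions, lengths and overlaps come from GENCODE M21 (GRCm38, the build that mm10 names), in which all 77 members were found, and promoter windows from RefSeq (GRCm38.p6). Mitochondrially encoded genes were matched by their RefSeq symbols. No protein sequences were used here. Alternatives were DESeq2's size factors, library totals alone, no filter, DESeq2 1.42.0, a replicate block, only the 6 libraries compared, leaving out each library, and leaving out Con replicates 2 and 3.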

Additional observations from a re-analysis of the deposited data

How the results depend on the processing

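In LPS against Con the median of the members was 0.29 with DESeq2 size factors and with DESeq2, and -0.01 with library totals alone, which called 28 members higher and 30 lower. In LPS+BHB against LPS library totals alone called 5 higher, and in LPS+BHB against Con they called 12 higher and 40 lower, with a median of -0.25. The shares of all tested genes called higher and lower were then 30.5% and 50.5% in LPS against Con. They were 23.5% and 28.4% in LPS+BHB against LPS, and 28% and 52.5% in LPS+BHB against Con. Library totals alone also turned Mrps18c to -0.09 in LPS against Con, and Mrps12 to -0.24, Mrps18a to -0.16 and Mrps18c to -0.29 in LPS+BHB against Con. The cause was not tested beyond the shift of all genes given above. Mrps36 in LPS+BHB against LPS (0.01) changed sign around 0, to -0.00 with DESeq2 size factors, DESeq2 and the 6 libraries compared, to -0.05 with library totals, -0.01 with no filter, -0.03 without LPS replicate 1 or 2 and between -0.16 (without LPS+BHB replicate 2) and 0.09 (without LPS+BHB replicate 3) over all single libraries left out.

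With single libraries left out, rises, falls, median and large minus small median were 39 to 45, 16 to 18, 0.23 to 0.30 and -0.13 to -0.05 in LPS against Con, 5 to 9, 27 to 34, -0.23 to -0.19 and 0.02 to 0.07 in LPS+BHB against LPS, and 22 to 31, 22 to 25, 0.06 to 0.10 and -0.12 to 0.07 in LPS+BHB against Con. A replicate block gave 42 rises and 18 falls, 9 and 34, and 29 and 24 in these comparisons. It cost 1 call among the named members (Mrps18c in LPS against Con, adjusted p = 0.0635). Same-numbered libraries deviated together with correlations of only -0.0166 to 0.0392, so the numbers were not read as pairs. Members with few counts (Mrpl22, Mrpl23 and Mrps18b at 441, 433 and 616 over all libraries) carry the largest errors.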

Other observations

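Mrpl40 was close to absent from these libraries, with 32 counts over all 9, although its protein is a known part of the large subunit. Its head-to-head neighbour Hira, a histone chaperone gene that starts 175 bp away, was also low at a mean of 0.985 CPM. Of 6 other protein-coding genes within 250 kb, 2 had 0 counts. Mrpl22 and Mrpl23, both at the rim of the exit tunnel, had 441 and 433 counts over the 9 libraries, while Mrpl24 at the same site had 12322. Of the 31-base words of Mrpl22, Mrpl23 and Mrpl24, 29.8%, 14% and 4.12% occur in another gene. In Mrpl24 26.3% of the exon bases lie inside exons of other genes, and the part of shared reads in these counts was not tested. Among the 5 pseudogene symbols left out, Mrpl48-ps had 853 counts, more than Mrpl22, Mrpl23 or Mrps18b, and Mrps36-ps3 had 0.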
